A study of Homo sapiens with 4 samples.

Results

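The sites described here are the N6-methyladenosine (m6A) sites of untreated HEK293T cells, a human embryonic kidney line that carries the SV40 large T antigen. They were chosen as the sites listed in both control libraries, by chromosome, position and strand, with at least 20 reads of A or G in each library. This gave 95063 sites, of 218950 listed in any of the 4 libraries of the series. They made up 71.5% of the 132989 sites listed for control 1 and 65.9% of the 144171 sites listed for control 2. The series holds 2 control and 2 ascorbic acid libraries, and no treated library entered any value below. Both control libraries are labelled wild type, and the labels name no other treatment, allele or vehicle for them. Whether the controls had the medium changes described for treated cells, and whether the 2 libraries came from separate cultures, is not stated. The SD between them may therefore be technical.

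m6A is laid down on nascent messenger RNA by a complex around METTL3 and METTL14, mostly within the sequence DRACH (D is A, G or T, R is A or G, and H is A, C or T). FTO and ALKBH5 can remove it, and proteins such as the YTHDF family bind it and affect the stability and translation of the transcript. The libraries were made by GLORI. Glyoxal and nitrite deaminate adenosine that lacks the methyl group, so that it is sequenced as G, and m6A is left as A. A site's level, in percent, was taken as its A reads over its A plus G reads. RNA was taken from bulk culture, so m6A on all copies in some cells and on some copies in all cells cannot be told apart. In both deposited lists the lowest depth was 15 reads of A or G, the fewest A reads were 5 and the lowest level was 10%, so unmethylated adenosines are not among the values.

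The sequence around a site could be read where the site lay within a RefSeq promoter window (250 bases before to 50 bases from an annotated transcript start) or a RefSeq miRNA hairpin. At all 2485 member sites in promoter windows and all 28 in hairpins, the RefSeq base was A, which places the deposited positions on GRCh38. The windows shown first are 4 of the 5 highest DRACH sites with at least 100 reads in each library and outside the first base, then neighbouring sites of a hairpin with very different levels, then sites at the first base of a transcript. Each has 10 bases on either side, and capitals mark the site, in the middle, with 2 bases on either side.
ALG11, chr13:52024455-52024475, plus strand: ttatttatGGACTtgttggtt
CCDC142, chr2:74472889-74472909, minus strand: gtatgagaGGACTattcatga
NDOR1, chr9:137217310-137217330, plus strand: gatcgccaGGACTgcgttctg
CES2, chr16:66935437-66935457, plus strand: cccacctaTGACTgctcagtc
FAM89A upper site, chr1:231019832-231019852, minus strand: gagggaugUGACUguugggaa
FAM89A middle site, chr1:231019870-231019890, minus strand: cagcgacuGGAUUcuggaguc
FAM89A lower site, chr1:231019875-231019895, minus strand: uccagcagCGACUggauucug
DDX5 first base, chr17:64506279-64506299, minus strand: agcggccgGCACCtcattcat
TUBA1C first base, chr12:49265072-49265092, plus strand: ccacccttTCACTacttctcc
NCL first base, chr2:231464474-231464494, minus strand: ctttcgccTCAGTctcgagct
PTBP1 first base, chr19:797442-797462, plus strand: ggttcctgCTATTccggcgcc
HLA-C first base, chr6:31272082-31272102, minus strand: acccggacTCACAttctcccc

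In the first 4 of these windows over 90% of reads carried A. ALG11, an enzyme of N-glycan assembly, stood at 98.2% in control 1 and 97.96% in control 2 on 112 and 147 reads. CCDC142 stood at 96.9% and 99.5%, NDOR1, a reductase of iron-sulfur cluster assembly, at 93.8% and 93.8%, and CES2, a carboxylesterase, at 91.6% and 92.1%. The FAM89A windows lie in the sequence of MIR1182, the hairpin with most member sites, and show how much level differed over short distances. The upper site, in a DRACH motif, stood at 97.0% and 96.8% on 402 and 560 reads. The middle site, 38 nt away, stood at 14.3% and 12.9%, and the lower site at 10.4% and 10.1%; neither is in DRACH. These differences were far larger than the gap between the libraries at any of the 3 sites.

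Most sites were partly methylated, and low levels were the most common. The median level was 34.7% in control 1 and 36.4% in control 2 (mean 35.5% ± 1.20, SD, n = 2), and the mean level 43.1% and 44.4%. The middle 50% of sites ran from 19.6% to 64.0% in control 1 and from 21.3% to 65.2% in control 2. By classes of 10 points, the share of sites fell from 23.6% ± 2.69 at 10 to 20% to 5.96% ± 0.153 at 70 to 80%, then rose to 9.33% ± 0.196 at 90 to 100% (n = 2 each). The distribution thus had a second, smaller rise at full methylation in both libraries. At 80% or more stood 15.4% of sites in control 1 and 15.9% in control 2, and at 95% or more 5.37% and 5.62%. At 570 sites every read of both libraries carried A.

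**Figure D1:**
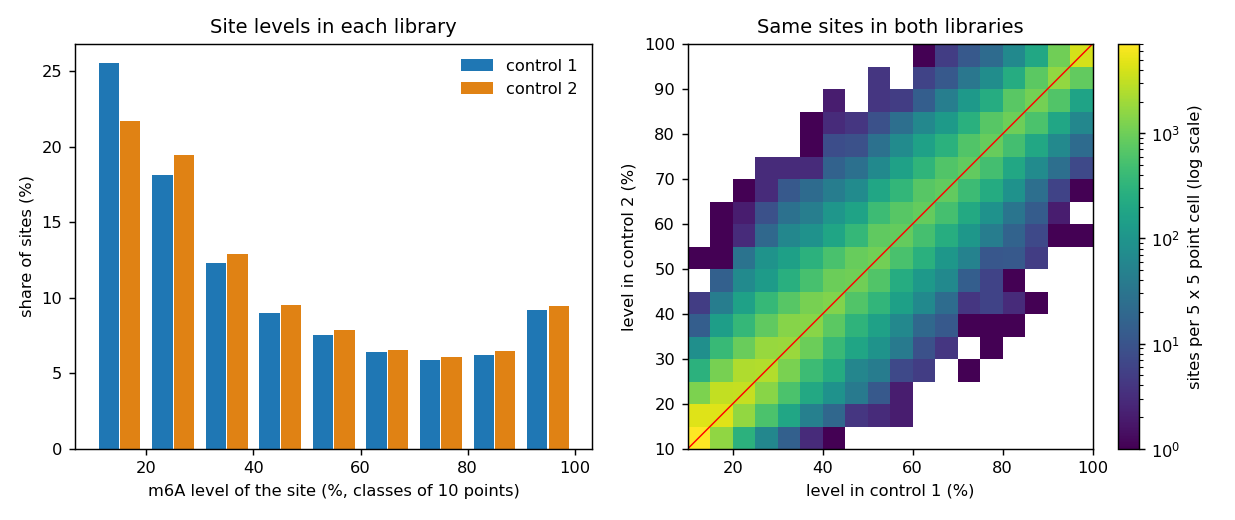
The left panel gives the share of the 95063 sites (y axis, %) in each class of 10 points of m6A level (x axis), with 1 bar per library; the right panel counts sites by their level in control 1 (x axis, %) and control 2 (y axis, %), with the line of equal levels in red. Shares are largest at 10 to 20% (25.5% and 21.7%), lowest at 70 to 80% and higher again at 90 to 100%, and sites gather along the line of equal levels.

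The 2 libraries gave nearly the same level for most sites. Across sites, which are not independent replicates, Pearson's r was 0.968 and Spearman's rho 0.952. At 86.6% of sites the libraries lay within 10 points of each other, and at 1.82% they lay over 20 points apart. Control 2 was higher at 60.4% of sites, with a median difference of 1.19 points. Control 2 also had the lower conversion, since the deposited conversion rates leave a median over genes of 2.55% of adenosine unconverted in control 1 and 3.97% in control 2. With each level corrected for its unconverted share, the median over sites was 32.8% in place of 35.4% (both over the mean of the libraries). The squared difference between libraries was 1.09 times that of binomial counting, averaged over sites. By depth, the SD between libraries was 6.998 points at 20 to 49 reads, where counting alone gives 7.35, and 1.78 points at 500 reads or more, where counting gives 1.35. At low depth the spread was thus at the size of counting error, and at high depth somewhat above it. Only sites listed in both libraries enter these values. Of sites with 20 reads or more, 79.3% of those in control 1 and 73.0% of those in control 2 were listed in the other library. A site that fell under the limits in 1 library is thus left out of this spread.

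The widest gaps between libraries at sites with at least 100 reads show what this spread leaves at single positions. A site of SH3PXD2A, an adaptor of podosomes, at chromosome 10 position 103600457 stood at 18.97% in control 1 and 47.2% in control 2, on 116 and 106 reads. ATP1B1, a subunit of the sodium pump, went the other way at chromosome 1 position 169131336, with 50.0% and 27.7%. Sites of POLR2F and ARFGAP2 stood at 11.1% and 33.3%, and at 14.3% and 35.7%. All 4 are among the 5 widest gaps at sites with at least 100 reads in each library.

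Whether a site was listed in both libraries went with its level. Of sites with at least 20 reads in control 1, 57.8% were also listed in control 2 where the level was 10 to 15%, against 91.1% at 40 to 60% and 86.6% at 80% or more. Of those in control 2, 33.5% were also listed in control 1 at 10 to 15%, against 94.8% and 95.6%. The sites described here therefore hold fewer low sites than either list: over all listed sites with 20 reads or more, the median was 30.4% in control 1 and 27.3% in control 2.

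Of the 95063 sites, 85844 lay in 11526 named genes and 9219 (9.70%) in no named gene. A gene held 5 sites at the median and 7.45 on average, and the middle 50% of genes held 2 to 10. In 2021 genes (17.5%) there was 1 site, in 1382 there were 2, and in 5028 there were 3 to 9. Genes with 10 or more sites numbered 3095 (26.9% of genes) and held 63.0% of the sites. The 1153 genes with most sites, 10.0% of all, held 34.0%. In single-site genes the median level was 27.3% for control 1 and 29.1% for control 2. Genes with 10 to 19 sites had 43.0% and 44.4%, and those with 20 to 49 had 45.6% and 47.2%. Level and site number thus went together, with a Spearman rho across the 8123 genes with at least 3 sites of 0.254 in control 1 and 0.250 in control 2. Median gene coverage also differed between these classes, from 66.2 in single-site genes to 104 in genes with 20 to 49 sites, and its part in this relation was not tested.

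KMT2D, a histone H3 lysine 4 methyltransferase gene, had the most sites, 100, between 11.8% and 98.1%. TUG1, an RNA known as a long noncoding RNA although the RefSeq table classes it as protein-coding, had 77, and SPEN, a transcriptional repressor related to RBM15, had 75. KMT2A, another histone H3 methyltransferase gene, and SON, a splicing cofactor, had 72 each. DIDO1 had 67, FAT1, an atypical cadherin, 66, ASXL1, a Polycomb-associated factor, 65, SRRM2, a protein of nuclear speckles, 64, and TASOR2, 62. In each of these 10 genes the lowest site was under 17% and the highest above 96%.

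Summing the levels of a gene's sites gives the mean number of m6A on a transcript copy, if every copy holds every site (isoforms were not resolved). The median was 1.85 in control 1 and 1.91 in control 2, and the mean 3.22 and 3.32. In 7703 genes (66.8%) the sum was at least 1, and in 702 (6.09%) at least 10. KMT2D had 48.5 in control 1 and 49.002 in control 2, a mean of 48.7 ± 0.3896 m6A per copy (SD, n = 2). FAT1 followed with 37.4 and 37.8, then TUG1 with 32.9 and 33.9. ARHGAP35, a GTPase-activating protein, had 32.6 and 34.0 on only 56 sites, since its level over all sites was 60.5%. SRRM2, with 64 sites at 28.5%, had 17.97 and 18.6. The libraries differed by less than 3 m6A per copy in all of these genes.

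**Figure D2:**
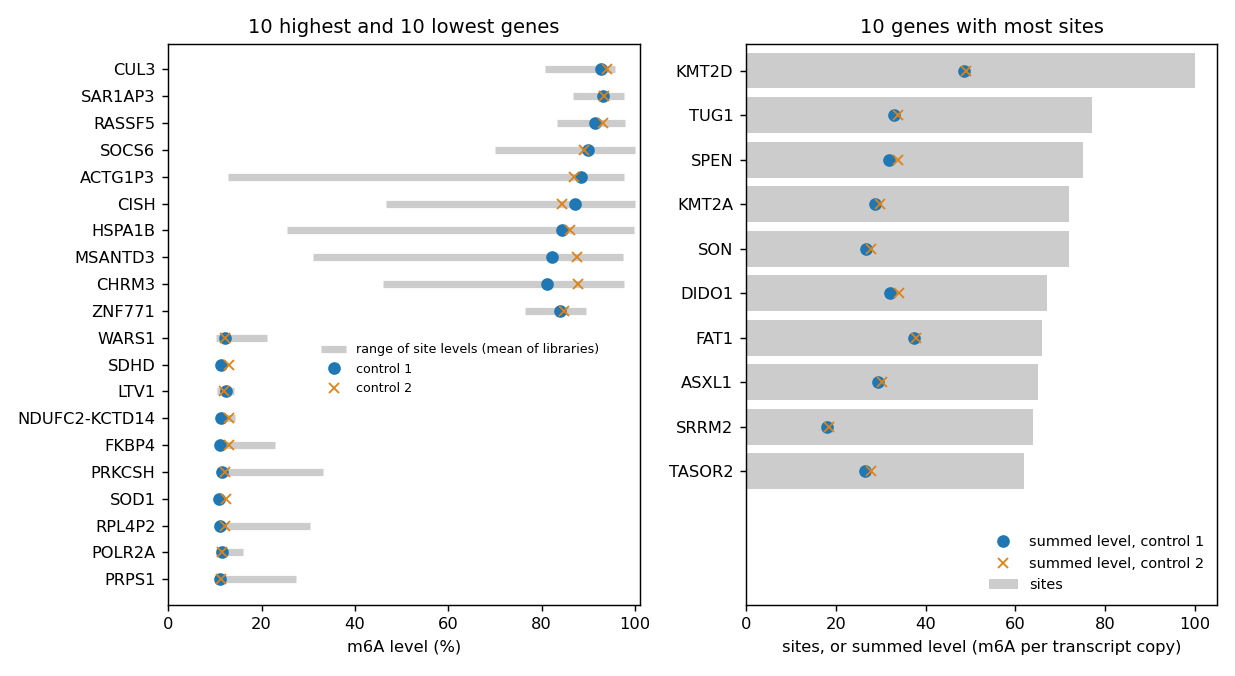
The left panel gives the m6A level (x axis, %) of the 10 highest and 10 lowest genes in each library, with a grey bar for the range over their sites; the right panel gives, for the 10 genes with most sites, the number of sites (grey bar) and the summed level in each library (x axis). By the mean of the libraries the highest genes lie at 84.4% to 93.4% and the lowest at 11.2% to 12.2%, and KMT2D has 100 sites and a summed level of 48.7.

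A gene's level was taken as its A reads over its A plus G reads, summed over its sites. Over the 8123 genes with at least 3 sites its median was 40.4% in control 1 and 41.9% in control 2, and the middle 50% ran from 30.2% to 49.9% and from 31.4% to 51.4%. Only 62 genes stood at 80% or more and 566 under 20%. Among the 6695 genes with at least 300 reads in each library, the most methylated was CUL3, the scaffold of a ubiquitin ligase family, at 92.8% and 94.0% over 3 sites. Its sites at chromosome 2 positions 224474196 and 224474214 stood at 93.6% ± 0.0584 and 95.6% ± 1.79. RASSF5, a Ras effector, stood at 91.5% and 93.1% over 7 sites, none under 83.3%. SOCS6 stood at 90.03% and 89.1% over 9 sites and CISH at 87.3% and 84.3% over 7. Both belong to the family of suppressors of cytokine signalling. At 2 of the CISH sites, on 48 to 66 reads, every read in both libraries carried A.

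HSPA1B, a gene of the inducible heat shock protein HSP70, was the deepest of the highest genes, at 84.4% and 86.1% on 34219 and 51892 reads. Of its 8 sites, 3 lay within 20 nt, at chromosome 6 positions 31829914, 31829923 and 31829931, with 98.5% ± 0.179, 81.1% ± 0.0245 and 97.1% ± 0.0868. Near its start a site at position 31827872 stood at 62.6% and 65.3%. Its lowest sites stood at 25.4%, 33.0% and 47.7% by the mean of the libraries. Its level follows its deepest sites, and its unweighted mean over sites was 68.3% in both libraries. HSPA1A is a near-identical copy, so these reads may come from either gene. MSANTD3 stood at 82.3% and 87.5%, CHRM3, a muscarinic receptor, at 81.1% and 87.7%, and ZNF771 at 83.9% and 84.9%. SAR1AP3 (93.2% and 93.4%) and ACTG1P3 (88.5% and 86.8%) are pseudogenes, whose reads can belong to their parent genes. The unweighted mean over sites was lower for MSANTD3 (71.9% and 76.0%), CHRM3 (70.6% and 77.4%) and ACTG1P3 (67.4% and 67.2%). For ZNF771 it was 82.3% and 84.4%, and for SAR1AP3 91.4% and 92.9%.

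At the other end, PRPS1, an enzyme of nucleotide synthesis, stood at 11.2% in both libraries over 3 sites, and POLR2A, the largest subunit of RNA polymerase II, at 11.6% in both. SOD1, the cytosolic superoxide dismutase, stood at 10.98% and 12.4%, PRKCSH, a subunit of glucosidase II, at 11.6% and 12.2%, and FKBP4, a co-chaperone of HSP90, at 11.03% and 13.0%. SDHD, a subunit of succinate dehydrogenase, stood at 11.3% and 13.0%, LTV1, a ribosome assembly factor, at 12.3% and 11.9%, and WARS1, the tryptophanyl-tRNA synthetase, at 12.1% and 12.2%. NDUFC2-KCTD14, a readthrough locus, stood at 11.2% and 13.0%, and the pseudogene RPL4P2 at 11.1% and 12.2%. All 10 lie just above the 10% limit of the lists, so their levels over listed sites could not have been much lower.

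Levels varied more within genes than between them. Differences between gene means held 20.3% of the variance of site levels in control 1 and 20.4% in control 2. Means of few sites differ by sampling alone, and the 2021 genes with 1 site have no spread within them. The share that sites dealt to genes at random would give was not computed, so these shares are not the size of a gene effect. Within a gene of at least 3 sites, the SD over sites was 25.5 and 25.1 points at the median, and the range 69.3 and 68.6 points. A site at 80% or more was present in 59.7% of these genes, a site under 20% in 79.0%, and both in 45.7%. Sites of 1 gene share its conversion rate and part of their reads, so they are not independent.

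Gene coverage, a deposited value that no source defines and that behaves as a mean read depth per gene, ran from 16.2 to 36653 in control 1 and from 17.7 to 34683 in control 2. Genes of higher coverage had lower m6A levels. Spearman's rho between gene level and gene coverage was -0.361 in control 1 and -0.346 in control 2, across 8123 genes. All 11526 genes were ranked by coverage and cut into 10 classes of 1152 or 1153, and the level was taken over those with at least 3 sites. The median gene level went from 54.4% and 54.3% in the lowest class to 30.6% and 32.5% in the highest, and it was lower in each class than in the one before in both libraries. The share of sites at 80% or more went from 24.7% in the lowest class to 8.87% in the highest, and the share under 20% from 5.40% to 40.2%.

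This relation touches the floor of the lists. Since 5 A reads make up 25% of 20 reads, a site of that depth cannot be listed at a lower level. Sites can be deeper than the coverage of their gene, and in the lowest class 5.40% of sites still lay under 20%. How much of the relation rests on the floor was not tested. With only sites at 25% or more in both libraries, which any depth allowed here can list, rho was -0.160 across 5967 genes. With at least 50 reads per site, where 5 A reads make up 10% or less, rho was -0.263. The median gene level then went from 46.2% and 48.8% in the lowest class to 30.2% and 32.0% in the highest. The direction was the same in each case. The authors' test against background may also keep low levels off the lists, and its part above 50 reads was not tested. Sites under 20% made up 25.1% at 50 to 100 reads and 33.2% at 200 to 500 reads.

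Sites per gene did not follow coverage in 1 direction. The mean went from 2.86 in the lowest class to 9.69 in the fifth and back to 5.05 in the highest, and rho across all 11526 genes was 0.0970 in control 1 and 0.111 in control 2. Sites at 50% or more, which the floor on levels does not touch, numbered 1.44 per gene in the lowest class, 3.58 in the fifth and 1.17 in the highest. Their rho with coverage was -0.107 over the same genes. The sign of this weak relation thus depends on whether low sites are counted. The minimum of 20 reads can leave out sites of any level where coverage is low. Coverage in the lowest class was 17.1 to 30.3, and the part of this minimum in the counts was not tested. The summed level had a rho with coverage of -0.0485 and -0.0267.

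**Figure D3:**
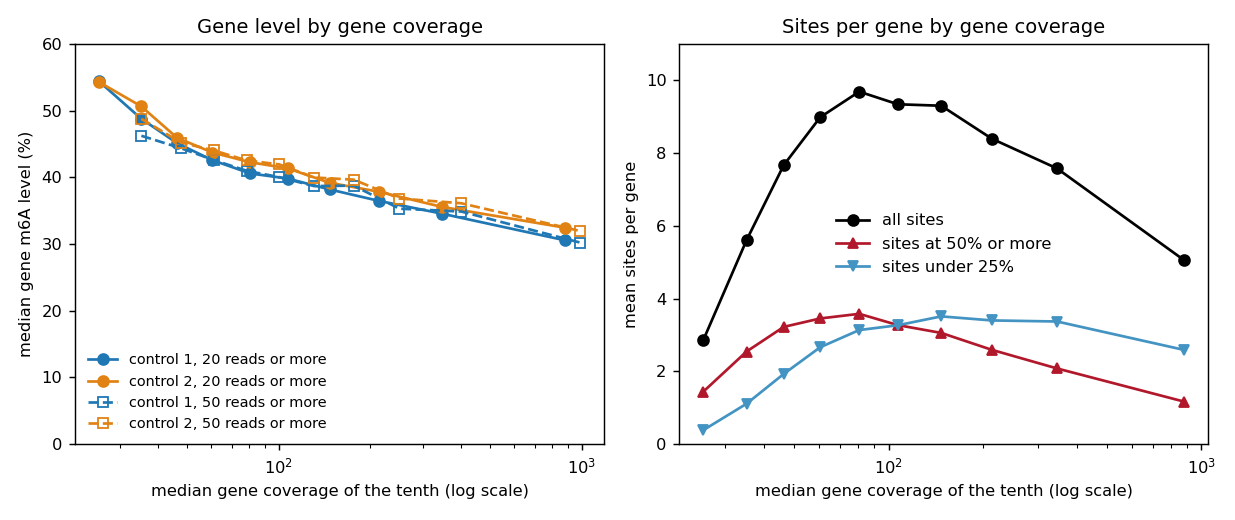
Genes are cut into 10 classes of equal size by gene coverage (x axis, median of the class, log scale). The left panel gives the median gene m6A level (y axis, %) in each library for sites with at least 20 reads (filled circles) and at least 50 reads (open squares), and the right panel the mean number of sites per gene. Levels go down from class to class with at least 20 reads, from 54.4% to 30.6% in control 1, while sites per gene peak at 9.69 in the fifth class.

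Single genes of very high coverage show the same. COX1, with a coverage of 36653 and 34683, had 1 site at 10.6% and 14.7%. Its name had no single RefSeq match, so whether it is the mitochondrial gene of that name is not given here. RACK1, a ribosomal scaffold, had 1 site at 16.2% and 16.6%, and RPLP1, a protein of the ribosomal stalk, had 3 sites at 11.6% and 14.5% in all. TUBA1C, an alpha tubulin, stood at 19.7% and 25.2% over 4 sites, with an unweighted mean over sites of 25.3% and 25.2%. RPL41, a short ribosomal protein, was the exception among the 5 genes of highest coverage, at 62.9% and 63.2%. The unweighted mean over its 4 sites was 39.0% and 38.1%. The RPL41 site at chromosome 12 position 56117608, the deepest of all, stood at 60.3% in both libraries on 56981 and 64334 reads. Other very deep sites were those of EEF1A1, the elongation factor, at 54.1% and 53.8% (chromosome 6 position 73517750), CKB, the brain creatine kinase, at 30.5% and 31.5%, and TUBB, a beta tubulin, at 19.4% and 21.5%. The deepest site of the pseudogene MTCO1P2, whose reads can belong to its mitochondrial parent, stood at 11.4% and 15.3%. Only 4 sites lay on the mitochondrial chromosome, the highest at 19.7%.

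The transcripts of the methylation machinery were themselves methylated. The list of the methyltransferase complex held 9 names, of which HAKAI is a synonym of CBLL1, and these 8 genes all had sites, 21.5 per gene at the median against 5 over all genes. RBM15, which brings the complex to RNA, had 39 sites at 55.1% in control 1 and 57.8% in control 2, and its paralog RBM15B had 44 at 46.4% and 48.8%. The catalytic METTL3 had 6 sites at 34.0% in both, its partner METTL14 13 sites at 46.0% and 43.7%, and the adaptor WTAP 25 sites at 36.7% and 37.7%. The scaffold VIRMA had 23 sites at 39.9% and 44.1%, CBLL1 20 at 42.3% and 42.7%, and ZC3H13 16 at 29.3% and 30.4%. The list's median level, 41.1% and 43.2%, lay near that of all genes with at least 3 sites. PCIF1, the enzyme that methylates the first base of capped transcripts, stood at 48.8% and 51.2% over 6 sites, and METTL16, which methylates U6 RNA, at 39.2% and 40.0% over 13. METTL4, a related methyltransferase, stood at 75.2% and 65.7% over 6 sites. ZCCHC4, which acts on ribosomal RNA, and TRMT112, a cofactor of such enzymes, had 2 sites each.

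Both demethylase transcripts lay lower. FTO stood at 27.3% and 25.8% over 11 sites, and ALKBH5 at 25.7% and 27.4% over 20. The readers divided by family. YTHDF1 stood at 51.3% and 52.4%, YTHDF2 at 62.9% and 64.5%, and YTHDF3 at 63.8% and 63.7%, each over 23 sites. The IGF2BP readers lay lower, with IGF2BP1 at 21.6% and 23.7% over 15 sites, IGF2BP2 at 20.3% and 23.6% over 8, and IGF2BP3 at 35.6% and 33.0% over 6. The nuclear reader YTHDC1 stood at 37.7% and 37.9% and the helicase YTHDC2 at 44.5% and 42.9%. PRRC2A stood at 46.0% and 52.2% over 23 sites and HNRNPA2B1 at 29.4% and 39.1%. The summed levels of these 2 genes were close in both libraries, at 9.08 ± 0.102 and 1.44 ± 0.0501 (SD, n = 2). HNRNPC stood at 25.7% and 22.8%, ELAVL1 at 30.0% and 30.2%, and FXR1 at 24.1% and 22.5%. RBMX, FXR2 and FMR1 had 2, 2 and 1 sites. The 3 YTHDF genes lay above the 3 IGF2BP genes in both libraries, by more than the gap between libraries.

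Lists of genes with basic cell functions lay low. The median level over genes with at least 3 sites was 22.1% in control 1 and 22.4% in control 2 for 24 cytosolic ribosomal proteins, against 40.4% and 41.9% for all genes. It was 20.9% and 21.9% for 7 glycolysis genes, 27.7% and 30.5% for 24 names of the respiratory chain list, which include the pseudogene UQCRFS1P1 and the ATP synthase inhibitor ATP5IF1, 28.9% and 31.2% for 14 proteasome subunits, and 30.0% and 30.9% for 24 translation factors. These lists also had high coverage, with a median of 1817 for ribosomal proteins and 1516 for glycolysis against 92.4 for all genes. The difference between a gene's level and the median of its own coverage class was therefore taken too. It was -10.04 points at the median for ribosomal protein genes (6 of 24 above 0), -11.6 points for glycolysis (1 of 7 above), -4.19 points for the respiratory chain (9 of 24 above) and -5.70 points for the proteasome (6 of 14 above). For translation factors it was -5.34 points (11 of 24 above). The highest class ran from a coverage of 500 to 35668, with a median of 882. For genes in that class these differences are therefore not at matched coverage. Within glycolysis, HK2, a hexokinase, stood apart at 46.3% and 49.01% over 18 sites. PKM, the pyruvate kinase, had 15.9% and 16.8%, HK1 16.2% and 20.96%, and PGAM1 25.4% and 31.8%. RPL22 lay lowest of the ribosomal proteins (12.4% and 12.6%), and RPL13A (51.5% and 52.7%) stood next to RPL41 at the top. Of the respiratory chain, NDUFV3 (60.5% and 64.2%) and NDUFV2 (55.7% and 61.1%), of complex I, were highest, and SDHD and ATP5PB (12.1% and 14.1%) lowest. Proteasome subunits ran from PSMD6 (11.5% and 13.0%) and PSMA5 (14.6% and 16.6%) to PSMB5 (42.8% and 44.0%) and PSMD7 (43.2% and 44.4%). Translation factors ran from EIF2S2 (11.2% and 14.7%) and EIF4B (16.0% and 16.7%) to EIF3B (48.6% and 50.5%) and EEF1A1 (58.0% and 57.1%).

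Lists of regulators lay high, again over genes with at least 3 sites. The 73 homeobox, SOX, FOX and KLF genes had a median level of 47.3% and 48.9%, and 58 of them lay above their own coverage class, by 6.40 points at the median. FOXD1 stood at 78.3% and 79.5% over 10 sites and SOX7 at 68.3% and 83.2% over 4, with FOXJ2 (19.1% and 23.1%) and FOXJ3 (20.6% and 22.9%) lowest. For 16 immediate early and short-lived transcripts the median was 49.6% and 51.7%, and 12 lay above their class, by 8.95 points at the median. JUNB, an AP-1 subunit, stood at 81.2% and 83.4% and KLF10 at 72.5% and 75.5%, against 24.5% and 27.9% for ATF4, an effector of the integrated stress response, and 29.9% and 35.1% for IER3. The 212 ZNF genes, of which ZNF204P, ZNF252P, ZNF271P and ZNF767P are pseudogenes, had 49.1% and 50.9% at a median coverage of 38.4, and 137 lay above their class, by 3.99 points. ZNF517 (84.6% and 90.5%) and ZNF697 (81.9% and 89.9%) were highest among these 212, and ZNF512 (18.8% and 16.7%) and ZNF770 (17.8% and 19.8%) lowest.

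**Figure D4:**
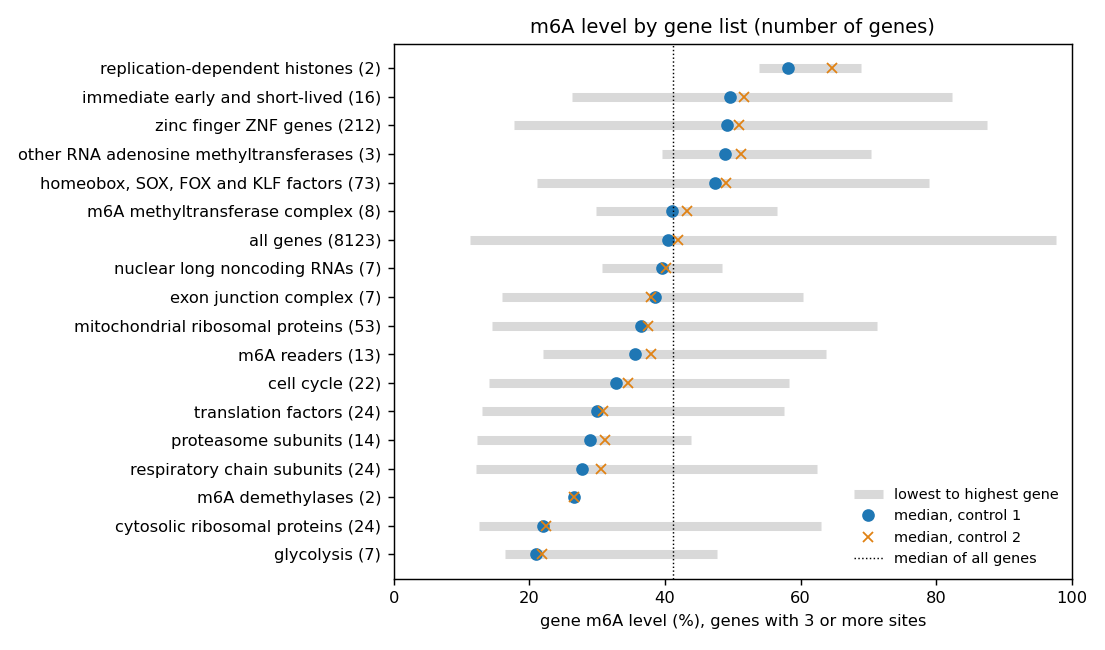
For each gene list (number of genes with at least 3 sites in brackets), the plot gives the median gene m6A level (x axis, %) in each library and a grey bar from the lowest to the highest gene; the dotted line is the median of all genes. Glycolysis and cytosolic ribosomal protein genes lie lowest, at about 21% to 22%, and ZNF, immediate early and developmental factor genes lie near 50%.

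For 22 cell cycle genes with at least 3 sites the median was 32.7% and 34.6%, from CCNB1, the mitotic cyclin, at 13.4% and 14.6%, and MCM4, a subunit of the replicative helicase, at 16.4% and 17.6%, to the G1 cyclins CCND1, at 49.5% and 57.5%, and CCNE1, at 60.5% and 56.0%. They had a coverage of 401 at the median, and 11 of 22 lay above their own class. The 53 mitochondrial ribosomal protein genes with at least 3 sites had 36.5% and 37.5%, unlike their cytosolic counterparts, and 31 lay above their class. MRPL12 (68.6% and 74.0%) and MRPL10 (70.7% and 71.9%) were highest of the 53, and MRPL51 (14.1% and 14.9%) and MRPL40 (13.9% and 16.6%) lowest. The exon junction complex is known to keep m6A out of short internal exons. In the list of its genes and partners, 7 genes had at least 3 sites, with a median of 38.5% and 38.0%. These were CASC3, UPF1, UPF2, UPF3A, UPF3B, PNN and ACIN1. EIF4A3, RBM8A, MAGOH and MAGOHB had 1 or 2 sites each and did not enter this median. ACIN1, at 58.3% and 62.4% over 23 sites, and UPF2, at 50.8% and 51.9%, were highest of the 7. UPF3A, at 15.7% and 16.3%, and PNN, at 32.9% and 32.1%, were lowest. Nuclear long noncoding RNAs had 39.5% and 40.1% over 7 genes. Among these MALAT1 stood at 32.5% and 28.8% over 4 sites, NEAT1 at 44.8% and 41.2% over 8, and OIP5-AS1 at 48.0% and 48.8% over 7. Replication-dependent histones, whose transcripts lack a poly(A) tail, had 6 genes with a site and only 2 with at least 3, at 58.1% and 64.6% at the median. No gene carried the MT- prefix, although named genes had sites on the mitochondrial chromosome.

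Of 18 markers fixed for HEK293 cells, 13 had a member site. They included the kidney factors EYA1, SALL1 and WT1, the neurofilament genes NEFM, NEFL and INA, and HOXA10, HOXB7 and HOXC10. SALL1 had 33 sites at 52.6% and 53.0%, and EYA1 6 sites at 59.6% and 57.9%. PAX2, LHX1, NEFH, KRT8 and PROM1 had no member site. None of 32 markers of blood, liver, fibroblast, epithelial or endothelial cells had one, and of 6 pluripotency markers SOX2 and LIN28B did. A gene without a listed site may still be expressed, so these lists show presence and not absence.

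By gene class, 80754 sites (84.9%) lay in 9949 protein-coding genes, with a median level of 34.6% and 36.4%. The 1785 sites in 390 long noncoding RNA genes had 40.9% and 42.9%, and the 2627 sites in 957 pseudogenes 30.8% and 32.0%. Coverage differed too, with a median of 94.8, 39.6 and 123, and its part in the order of these classes was not tested. Sites in no named gene had 34.6% and 36.2%. Along protein-coding genes, levels were lowest close to the annotated 3' end. The median was 30.7% and 32.0% at less than 250 nt, 31.7% and 33.3% at 250 to 500 nt, 32.9% and 34.5% at 500 to 1000 nt, and 35.6% and 37.3% at 1000 to 2000 nt. It was highest at 2000 to 5000 nt, with 36.6% and 38.4%, 34.6% and 36.4% at 5000 to 20000 nt, and 34.8% and 36.7% farther away. Both libraries gave the same order up to 5000 nt. The step at 1000 nt and the step down at 5000 nt were larger than the gap between the libraries, and the others were smaller. Distances are on the genome and include introns. Median gene coverage went from 171 in the class nearest the end to 93.0 at 2000 to 5000 nt, and its part here was not tested.

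Crowded sites had other levels than isolated ones. The median was 25.5% and 27.3% at the 11972 sites whose nearest site lay at least 500 nt away, 33.3% and 35.5% at 100 to 500 nt, and 39.3% and 40.9% at 50 to 100 nt. At 20 to 50 nt it was 38.7% and 40.4%, and below 5 nt 29.8% and 31.8%. Genes with few sites also had lower levels, with 27.3% and 29.1% in single-site genes. The part of sites per gene in these medians was not tested. Neighbouring sites 20 to 50 nt apart differed in level by 24.4 and 24.3 points at the median, close to the 24.9 and 24.7 points over all 619112 pairs within genes. Neighbours less than 5 nt apart differed by 17.2 and 17.8 points, but those at least 2000 nt apart differed as little, by 17.7 and 17.5 points. A smaller difference was thus not particular to close neighbours. Both the most crowded and the most isolated sites had lower levels, and the part of level in these differences was not tested. Pairs exactly 6 nt apart were different. They numbered 1132, against 576 at 5 nt and 665 at 7 nt, and differed by only 9.95 and 10.4 points, against 23.5 and 23.4 points at 5 nt. The 2521 sites with another 6 nt away had a median of 23.5%. The cDNA adapter in the labels' protocol carries 6 random bases, and its part in these pairs was not tested. Leaving these sites out moved the median over all sites from 35.4% to 35.7%.

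Among distances between neighbouring sites, multiples of 3 were more frequent than either other remainder. From 7 to 60 nt, 37.2% of 25695 distances were multiples of 3, and 31.5% and 31.3% left a remainder of 1 and 2. From 61 to 120 nt the share was 36.5%. Within protein-coding genes it was 38.2% at 2000 to 20000 nt from the 3' end of the gene and 33.3% within 500 nt of it. In long noncoding RNA genes it was 34.5% of 458 distances, where a remainder of 2 was more frequent, at 36.0%. Without ZNF genes, the share in protein-coding genes was 37.3%.

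The first base of transcripts was a frequent site. Of the 2485 sites in promoter windows, 805 lay at the first base of an annotated transcript, against 32 at the second, 94 at the third and 88 at the fourth. The first base of many messenger RNAs is known to carry a second modification on its sugar, and its N6-methylated form, made by PCIF1, is also read as A here, so the 2 forms were not told apart. Of 3815 genes with a member site and an A as the first base of their RefSeq window, 720 (18.9%) had a member site there. The level was 26.9% and 30.9% at the median, with 67.5% of these sites between 20 and 60% and 0.497% at 80% or more. The first-base sites printed above show the range. DDX5, an RNA helicase, stood at 69.1% and 71.3% on 4067 and 6883 reads, TUBA1C at 55.9% and 57.5%, NCL, the nucleolin gene, at 30.1% and 32.9%, and PTBP1, a splicing repressor, at 24.5% and 24.4%. HLA-C, an antigen-presenting protein, was highest among those with at least 100 reads, at 92.3% and 94.5%. B2M, its light chain, came next at 81.8% and 83.2%.

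**Figure D5:**
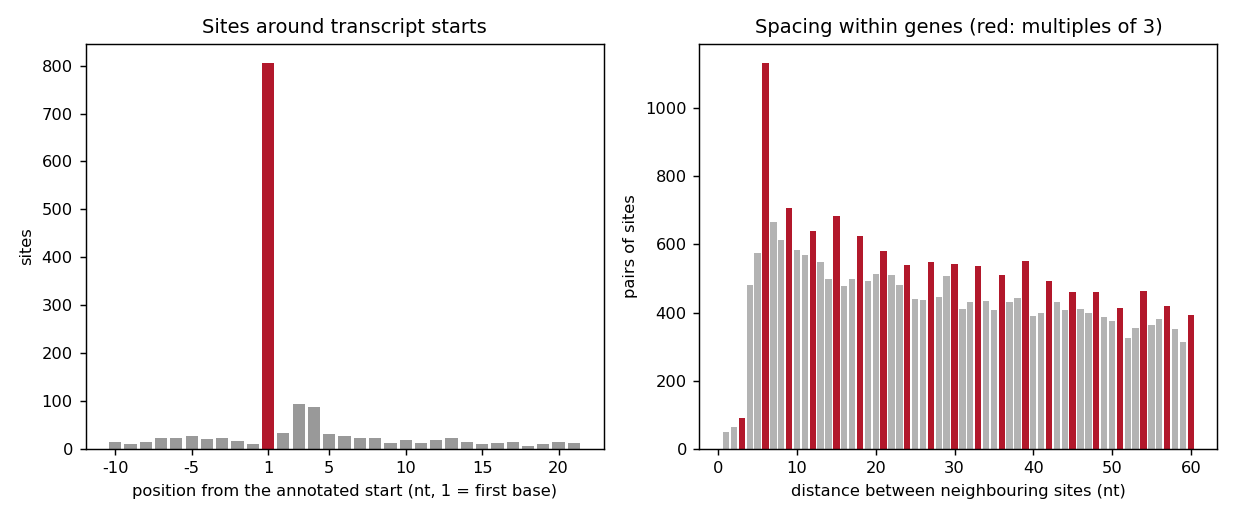
The left panel counts sites (y axis) by their position from the annotated transcript start (x axis, nt), with the first base in red; the right panel counts pairs of neighbouring sites (y axis) by the distance between them (x axis, nt), with multiples of 3 in red. The first base holds 805 sites and no position beside it more than 94, and 6 nt is the most frequent distance, with 1132 pairs.

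First-base sites rarely lay in DRACH, which needs A or G just before the site. C or T stood there in 91.0% of all genes with an A as first base, so a low share was set in advance. The base before a start is also not part of the annotated transcript, so this share does not describe a motif of the RNA. Of first-base sites, 1.37% lay in DRACH, and 77.02% had a C just before them, as did 73.4% of all genes with an A as first base. In the 250 bases before a start, where a member site usually belongs to an overlapping or earlier transcript, 39.9% of 1008 sites lay in DRACH, against 7.04% of all adenines in the windows of genes with a member site. The single most frequent word there was GGACT, at 13.0% of sites, against 0.620% of adenines; 26.8% of the windows of genes with a member site and 25.3% of all windows hold it at least once. DRACH sites there stood at 33.4% and 36.7%, other sites at 20.4% and 23.7%, and 12.4% of DRACH sites but 0.660% of others were at 80% or more. At bases 2 to 50, 18.5% of 661 sites lay in DRACH, with 23.1% and 26.9% against 16.7% and 19.4% for others. DRACH sites lay above the others in both libraries in both regions. These windows hold 2485 of 95063 sites and lie at transcript starts, so their motif shares do not stand for all sites.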

How the data were processed

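GLORI was run on 300 ng of messenger RNA per library, with deamination for 8 h at 16 °C, per the labels' protocols. Trimmomatic 0.39, STAR, hg38 and GRCh38 appear in the submitters' processing notes; a site caller was not given in the sources used here. The A plus G and A read counts per site are the authors' counts, deposited without scaling. The deposited level is a fraction, A over A plus G, and matched recomputation within 5e-06. The conversion rate, also a deposited fraction, has 1 value per gene. Gene coverage is used as the deposited signal, with no scaling for depth. The p-value and adjusted p-value per site are the authors' test against background, per the file headers, with a largest adjusted p of 0.00401 and 0.00404. Listed sites held 22592887 and 28562744 reads of A or G, and the median depth of member sites was 91 and 94 reads. Whether reads of 1 molecule were collapsed was not given in the sources used here.

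Levels were computed from the counts in Python 3.11.15 with pandas 2.3.3 and numpy 2.4.6, and the scripts were tested on simulated data. With 1 group of 2 libraries there is no test and no p-value; SD is that between the libraries. The other 2 libraries were used only to count the sites of the series. Of 11526 gene names, 11100 matched a RefSeq symbol (GRCh38.p14), 212 a synonym, and 214 were unmatched or ambiguous. No genome sequence was used here; sequences are RefSeq's. Named genes are the 10 highest and 10 lowest levels (at least 3 sites, 300 reads in each library), the 10 with most sites, the 10 highest summed levels, the 5 of highest coverage, 10 sites by depth or gap, and in each list the 2 highest and 2 lowest, with all methylation genes. Genes of a list not named fall outside this rule. The members and lists were chosen with earlier results of these data known; the sequence windows and the remainders by 3 were added, and pseudogenes and related kinases or binding proteins taken out of the ribosomal and translation lists, after values were seen. Some genes that the rule names are not reported here.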

Additional observations from a re-analysis of the deposited data

How the results depend on the processing

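No paired analysis was possible because the results describe 1 group and come from no test. Depth limits low levels most: 20 reads cannot list a site under 25%. With no minimum beyond the authors' list, 50 reads and 100 reads in each library, in that order, the median site level was 37.2%, 31.4% and 30.0%, the mean 44.9%, 41.2% and 40.1%, and the share at 80% or more 16.1%, 14.3% and 13.7%. In the same order the median summed level was 1.98, 1.49 and 1.16, rho of gene level and coverage -0.402, -0.263 and -0.220, rho of gene level and sites per gene 0.228, 0.250 and 0.223, and Pearson's r between libraries 0.962, 0.983 and 0.990. At 50 and 100 reads the share under 20% was 29.9% and 32.6%, the median sites per gene 4 and 3, the median gene level 39.8% and 39.1%, and rho of sites per gene and coverage 0.134 and 0.191. At 100 reads 41475 sites were left. Corrected for the unconverted share, the median site level was 32.8%, the mean 41.5%, the share at 80% or more 14.9% and under 20% 30.0%, the median gene level 38.9%, the summed level 1.78, rho of gene level and sites per gene 0.243 and r 0.967. Without sites that have another 6 nt away, rho of gene level and sites per gene was 0.250 and r 0.967. With the unweighted mean of site levels, rho of gene level was -0.420 with coverage and 0.272 with sites per gene. With at least 5 sites per gene the median gene level was 42.6% and rho with sites per gene 0.215. Thinned to 20 reads per site, genes held 3 sites at the median and rho with coverage was 0.0258. With sites at 25% or more, chosen after seeing the data, rho of gene level and coverage was -0.160.

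From the own list of 1 library, leaving out control replicate 1 or 2, the median site level was 27.3% and 30.4%, the mean 38.0% and 40.4%, the share at 80% or more 12.4% and 14.3%, and the share under 20% 34.8% and 31.2%. The median sites per gene were 6 and 6, the gene level 34.3% and 37.8%, and the summed level 1.90 and 1.97. Spearman's rho of gene level and coverage was -0.371 and -0.310, of sites per gene and coverage 0.180 and 0.0639, and of gene level and sites per gene 0.273 and 0.302; r needs both libraries. No value changed sign in any of the 91 alternatives run. Counting only sites at 50% or more was not among them, and there rho of sites per gene and coverage was -0.107.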
